A study of Cannabis sativa with 6 samples.

Results

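Transcripts of 4 mitochondrial ATP synthase genes, atp1, atp4, atp6 and atp8 (locus tags A5N79_gp35, A5N79_gp31, A5N79_gp29 and A5N79_gp16), were compared between control and heated leaves of *Cannabis sativa*. They were chosen by these locus tags, and they are 4 of the 34253 genes counted and 4 of the 35 protein-coding genes counted on the mitochondrial genome. The material came from young plants of the cultivar Pink Pepper, 3 weeks after transplanting from a germination period of 15 days. Control plants then stayed at 23 ± 1 °C for 7 days and heat plants at 45 ± 2 °C for the same 7 days, both at 40 ± 4% relative humidity, and each group gave 3 leaf mRNA libraries. The comparison asks how leaf transcripts differ after a week at high temperature.

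ATP synthase makes ATP in the inner mitochondrial membrane from the flow of protons that respiration pumps out. Protons pass through a membrane part and turn a ring of identical subunits, and this rotation drives a catalytic head that a peripheral stalk holds in place. In flowering plants a few subunits are encoded by the mitochondrial genome and the rest by nuclear genes, so the enzyme is assembled from products of both genomes. The gene atp1 encodes the alpha subunit of the catalytic head, and atp4 encodes subunit b of the peripheral stalk. In the membrane part, atp6 encodes subunit a, which forms the proton path with the ring, and atp8 encodes a small subunit named after subunit 8 of yeast. The ring subunit c is encoded by atp9, which is not among the 4 genes and is given below for comparison. Nuclear ATP synthase genes were not analysed here, because the gene names used are locus numbers without product names. For the same reason the leaf label could not be checked against marker genes.

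The control libraries held 30766680 to 36584253 gene counts and the heat libraries 28492832 to 30012772. Whether each library came from its own plant is not in the labels, so p-values reflect only how far these libraries scatter, which may be technical scatter. Transcript levels are given as CPM, counts per 1000000 gene counts of the library. These are bulk leaf samples, in which changes in the cells present, in mitochondria per cell and in RNA per cell cannot be told apart. The library kit selects RNA with a poly(A) tail, which most plant mitochondrial transcripts do not carry stably, so the counts are of the mitochondrial RNA that passed this step.

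All 4 genes rose in heat, and each heat library lay above each control library for every one of them. By edgeR's quasi-likelihood test over 17727 genes, atp6 rose most, about 39.7-fold, followed by atp4 (20.8-fold), atp1 (15.3-fold) and atp8 (7.30-fold). Calls were common in these data, with 44.3% of all genes tested rising and 46.4% falling, and a rise in all 4 genes is read against these shares. A rise of at least 4-fold, which all 4 genes showed, was called for 16.5% of the genes tested. The median log2 fold change of the 4 was 4.16, against -0.05 for all genes tested and 5.38 for the 30 other mitochondrial protein-coding genes, those of ATP synthase left out. Of those 30 genes, 17 were under the count filter (0.329 CPM) in at least 1 control library, against 1 of the 4 (atp6). The 5.38 thus rests in large part on genes with low control counts, and its difference from 4.16 was not tested. Groups that did not overlap were seen for 91.0% of the genes tested, and with heat the higher group for 43.3%.

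**Figure D1:**
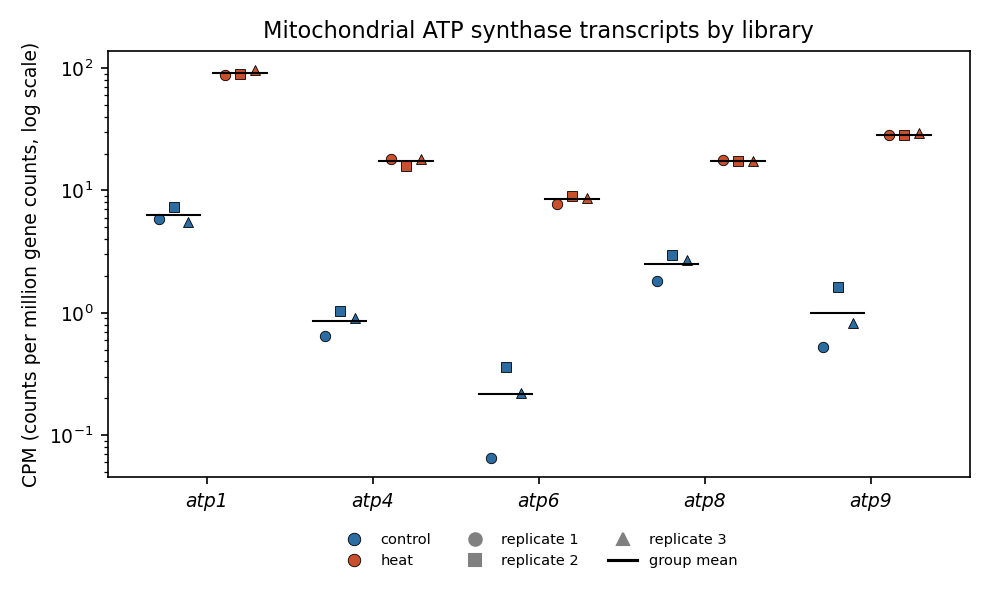
CPM (log axis) of the 5 mitochondrial ATP synthase genes in each library, with control in blue, heat in orange, a symbol for each replicate number and a black line at the group mean. The heat libraries lie above the control libraries for each gene, and the control values of atp6 (0.0650 to 0.363 CPM) are the most scattered of the 4 genes compared.

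The catalytic alpha subunit gene, atp1, was the best counted of the 4. Its counts were 180, 243 and 203 in the control libraries and 2640, 2582 and 2747 in the heat libraries. These are 5.85, 7.35 and 5.55 CPM in control and 88.0, 89.5 and 96.4 CPM in heat, so the lowest heat library stood far above the highest control library. The mean went from 6.25 ± 0.967 to 91.3 ± 4.50 CPM (SD, n = 3), and the log2 fold change was 3.93 ± 0.07 (SE; adjusted p = 7.57e-29 by edgeR). Its protein-coding neighbours had larger log2 fold changes, nad9 of complex I with 5.44 ± 0.27 and mttB with 4.97 ± 0.37.

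The stalk gene atp4 had 20, 34 and 33 counts in control and 546, 456 and 514 in heat. In CPM these were 0.650, 1.03 and 0.902 against 18.2, 15.8 and 18.0, and the groups did not overlap. The mean went from 0.860 ± 0.193 to 17.3 ± 1.34 CPM (SD, n = 3), for a log2 fold change of 4.38 ± 0.16 (SE; adjusted p = 9.67e-22 by edgeR). Its neighbour nad4L, which encodes a subunit of complex I, had a log2 fold change of 4.49 ± 0.21, while ccmC, the neighbour on the other side and a gene of cytochrome c maturation, had 7.65 ± 0.35 from only 4 counts over the control group.

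The proton path gene atp6 was near the limit of detection in control leaves. It had 2, 12 and 8 counts there, or 0.0650, 0.363 and 0.219 CPM, and 233, 259 and 247 counts in heat, or 7.76, 8.98 and 8.67 CPM. The heat libraries were close to each other, while control replicate 1 held a few reads only. The mean went from 0.216 ± 0.149 to 8.47 ± 0.631 CPM (SD, n = 3), which edgeR fitted as a log2 fold change of 5.31 ± 0.28 (SE; adjusted p = 7.22e-18). The ratio of the summed counts, scaled to the gene counts, was 38.6 with an exact 95% interval of 25.3 to 62.0, which covers counting error only. Only 1 control library reached the 0.329 CPM that the count filter asks of 3 libraries, so atp6 was tested because of its heat libraries. Its protein-coding neighbours ccmC and rps7, with 4 and 3 control counts, had log2 fold changes of 7.65 ± 0.35 and 7.20 ± 0.43. Without control replicate 1 the log2 fold change of atp6 was 4.90, and without control replicate 2 it was 5.84.

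The small membrane subunit gene atp8 rose least. Its counts were 56, 98 and 98 in control and 531, 505 and 495 in heat. The corresponding levels were 1.82, 2.97 and 2.68 CPM in control and 17.7, 17.5 and 17.4 CPM in heat, with little spread among the heat libraries. The mean went from 2.49 ± 0.596 to 17.5 ± 0.161 CPM (SD, n = 3), and the log2 fold change was 2.87 ± 0.14 (SE; adjusted p = 1.29e-18 by edgeR). In the gene table atp8 overlaps an entry named nad3, classed as a pseudogene, which has no row in the count files. Its protein-coding neighbours cob (cytochrome b) and cox3 (subunit 3 of cytochrome c oxidase) had log2 fold changes of 3.96 ± 0.16 and 3.55 ± 0.16, also in the lower part of the mitochondrial genes.

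Control libraries varied together. Control replicate 2 was the highest control library for all 4 genes, and also for atp9 and for the sum of the mitochondrial protein-coding genes (39.5 per 1000000 gene counts, against 25.6 and 28.8 in control replicates 1 and 3). Control replicate 1 was the lowest for atp4, atp6 and atp8, while control replicate 3 was the lowest for atp1. The coefficient of variation between control libraries was 15.5% for atp1, 22.4% for atp4, 69.2% for atp6 and 24.0% for atp8, where counting error alone gives 6.92%, 18.6%, 36.9% and 10.9%. In heat the coefficients were 4.93%, 7.71%, 7.44% and 0.918%, with 1.94%, 4.45%, 6.37% and 4.43% from counting error. Spread beyond counting error was therefore clearest for atp1 in both groups and for atp8 in control, and atp8 in heat varied by less than counting error gives.

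The proportions of the 4 subunit genes were then taken within each library. Of the summed counts of the 4 genes (258 to 387 per control library and 3802 to 4003 per heat library), atp8 made up 21.7%, 25.3% and 28.7% in the control libraries and 13.4%, 13.3% and 12.4% in the heat libraries. The lowest control share, 21.7%, has a Wilson 95% interval of 17.1% to 27.1%, and the highest heat share, 13.4%, one of 12.4% to 14.5%. Its mean share was thus 25.2% ± 3.48 in control and 13.0% ± 0.581 in heat (SD, n = 3), a difference of -12.2 percentage points.

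The shares of atp4 and atp6 lay the other way. Those of atp4 were 7.75%, 8.79% and 9.65% in control and 13.8%, 12.0% and 12.8% in heat, with means of 8.73% ± 0.950 and 12.9% ± 0.915. Those of atp6 were 0.775%, 3.10% and 2.34% in control and 5.90%, 6.81% and 6.17% in heat, with means of 2.07% ± 1.19 and 6.29% ± 0.469. For atp4, atp6 and atp8 the groups did not overlap (two-sided exact permutation over libraries, p = 0.1, which is as low as 3 against 3 allows; adjusted p = 0.133 over the 4 shares). Groups of single genes did not overlap for 91.0% of the genes tested, so separation alone does not set these shares apart. The 4 shares add up to a fixed whole, so a lower share of atp8 means a higher sum for the others. The share of atp1 was 69.8%, 62.8% and 59.4% in control and 66.8%, 67.9% and 68.6% in heat, and here the groups overlapped (means of 64.0% ± 5.30 and 67.8% ± 0.900; same exact permutation, p = 0.4; adjusted p = 0.4). Leaving out control replicate 1 gave the largest difference in the share of atp1, 6.72 points, and leaving out control replicate 3 the smallest, 1.51 points, against 3.82 with all libraries. Within a group the proportions varied little beyond sampling, with chi-square values of 1.62 in control and 1.79 in heat per degree of freedom (6 degrees each).

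**Figure D2:**
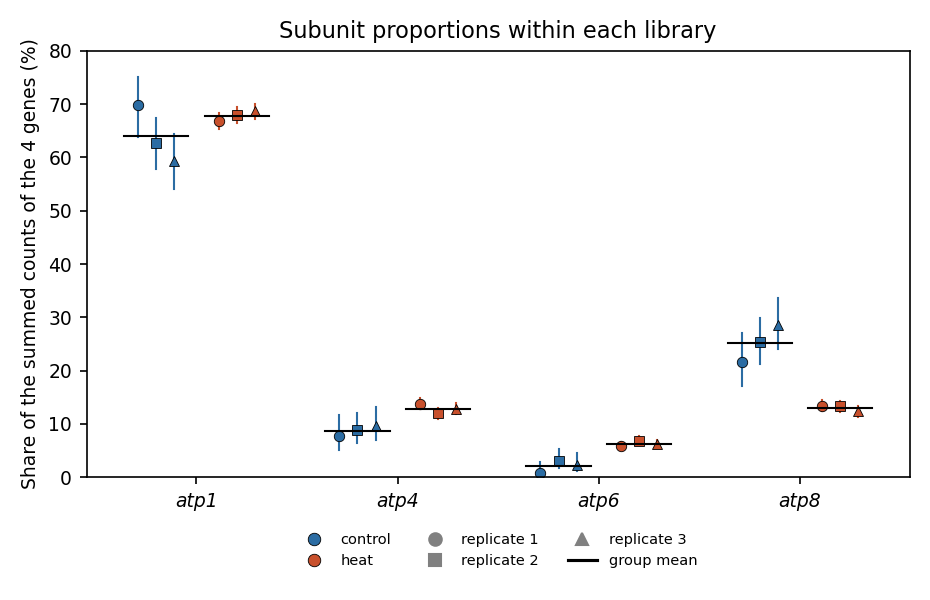
Share of each gene in the summed counts of the 4 genes in each library, in percent, with control in blue, heat in orange, Wilson 95% intervals as vertical bars (counting error only) and group means as black lines. The share of atp8 is 21.7% to 28.7% in control and 12.4% to 13.4% in heat, while the groups overlap for atp1.

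A longer gene gives more reads, so the proportions above are shares of reads and not of transcripts. Divided by the coding lengths of the RefSeq table (assembly ASM2916894v1, which the deposited sources do not name), levels can be set side by side as reads per length. How much of each transcript passed the poly(A) step was not measured, so these levels are not amounts of transcript. In control, CPM per kilobase were 5.18 ± 1.24 for atp8, 4.09 ± 0.632 for atp1, 1.44 ± 0.323 for atp4 and 0.299 ± 0.207 for atp6 (SD, n = 3). The levels of atp8 and atp1 did not differ beyond their spread, with atp8 ahead in 2 control libraries and atp1 in 1. In heat the levels were 59.7 ± 2.94 for atp1, 36.5 ± 0.335 for atp8, 29.1 ± 2.24 for atp4 and 11.8 ± 0.876 for atp6, the same order in each of the 3 libraries. The highest of the 4 exceeded the lowest by 12.3 to 42.4 times in a control library and by 4.69 to 5.33 times in a heat library. The lowest was atp6 in each library, with only 2, 12 and 8 reads in control, and the 42.4 rests on the 2 reads. On this scale the share of atp8 was 46.8% ± 3.76 in control and 26.7% ± 0.937 in heat, and that of atp4 13.0% ± 0.664 and 21.2% ± 1.36.

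Ratios between pairs of genes need neither length nor library scaling. For all 6 pairs the 3 heat libraries lay on one side of the 3 control libraries (two-sided exact permutation of log2 ratios, p = 0.1, as low as it can be here; adjusted p = 0.1 over 6 pairs). The share of separated pairs among all genes was not computed, and 91.0% of single genes tested separated the groups. Separation alone therefore does not set these pairs apart. The pair with the steadiest ratio among the control libraries was atp4 over atp8, with 0.357, 0.347 and 0.337 reads of atp4 for each read of atp8 in control, and 1.03, 0.903 and 1.04 in heat. The log2 ratio of this pair was 1.51 higher in heat, against SDs of 0.04 in control and 0.11 in heat. In heat, atp1 over atp8 (0.08) and atp1 over atp6 (0.10) varied less. Because the pair was picked by its control SD, the 0.04 is likely to understate its scatter. The control counts of atp4 were 20, 34 and 33, and counting error alone gives them a coefficient of variation of 18.6%. For the other pairs the control SD was 0.28 to 1.16.

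For atp1 over atp8 the ratios were 3.21, 2.48 and 2.07 in control and 4.97, 5.11 and 5.55 in heat, a ratio of summed counts 2.10 times as large in heat (exact 95% interval 1.78 to 2.45, counting error only). The pair of atp6 over atp8 differed most, with 0.0357, 0.122 and 0.0816 in control and 0.439, 0.513 and 0.499 in heat. Its ratio of summed counts was 5.53 times as large in heat (3.53 to 9.06). The smallest difference was that of atp1 over atp4, with 7.20 reads of atp1 for each read of atp4 in the summed control counts and 5.26 in the summed heat counts. That ratio was 0.731 times the control value (0.573 to 0.922), a mean log2 difference of -0.48.

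Pairs with atp6 rest on few control reads. The mean log2 difference of atp1 over atp6 was -1.73 and that of atp4 over atp6 -1.26. Without control replicate 1, which held 2 reads of atp6, these values were -1.07 and -0.74. The atp6 over atp8 difference of 2.77 was 2.27 without that library.

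**Figure D3:**
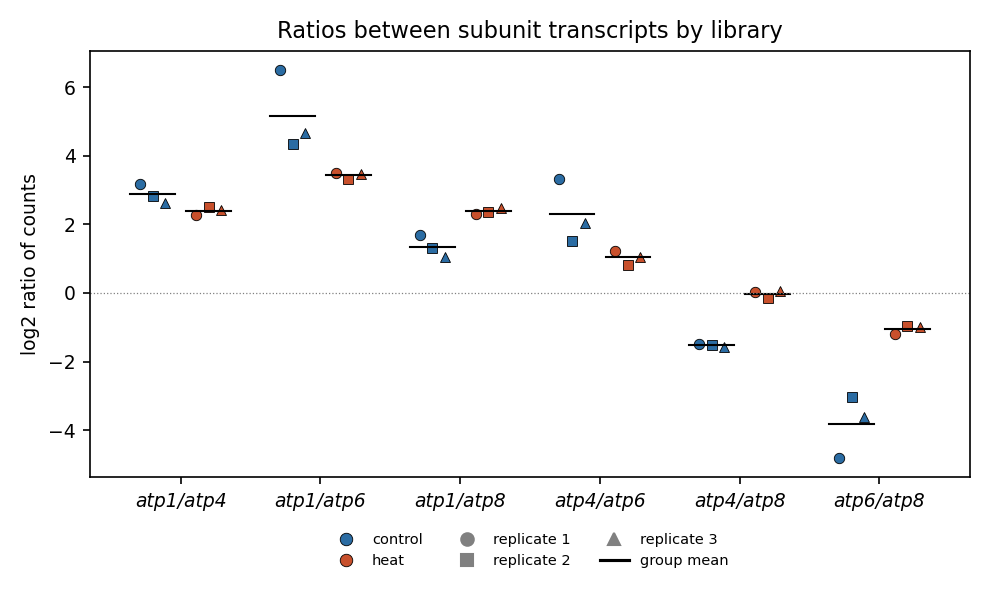
Log2 ratio of counts for the 6 pairs of genes in each library, with control in blue, heat in orange and group means as black lines. The groups are apart in each pair, and control replicate 1 stands away from the other control libraries in the pairs with atp6.

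The ring gene atp9 rose as well, from 16, 54 and 30 counts in control to 848, 815 and 841 in heat. Its mean went from 0.991 ± 0.577 to 28.7 ± 0.731 CPM (SD, n = 3), and its log2 fold change of 4.91 ± 0.17 (SE; adjusted p = 2.54e-17 by edgeR) lay between those of atp4 and atp6. For each read of atp8 there were 0.397 reads of atp9 in the summed control counts and 1.64 in the summed heat counts. Per kilobase of coding length atp9 stood at 2.54 ± 1.48 CPM in control, below the means of atp8 and atp1, and at 73.5 ± 1.87 CPM in heat, above all 4 genes. With atp9 added to the sum, the difference in the share of atp1, heat minus control, was -2.57 points instead of 3.82.

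Among the transcripts of the same genome, the summed counts of the 4 genes had a smaller fold than those of the other genes. Together the 4 went from 8.39, 11.7 and 9.35 CPM in the control libraries to 131.6, 131.8 and 140.5 CPM in the heat libraries, a ratio of means of 13.7. The other 31 mitochondrial protein-coding genes went from 17.2, 27.8 and 19.5 CPM to 679.7, 673.01 and 661.01 CPM, a ratio of 31.2. The 4 genes accordingly made up 32.7%, 29.7% and 32.4% of all mitochondrial protein-coding counts in control and 16.2%, 16.4% and 17.5% in heat, without overlap. The means were 31.6% ± 1.69 and 16.7% ± 0.715 (SD, n = 3; two-sided exact permutation, p = 0.1, again the lowest possible; adjusted p = 0.114 over 8 measures). Separation alone does not set this share apart either, as 91.0% of single genes tested separated the groups.

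Most of that difference lay in atp1 and atp8. The share of atp1 in the mitochondrial protein-coding counts was 22.8%, 18.6% and 19.3% in control and 10.8%, 11.1% and 12.0% in heat. That of atp8 was 7.11%, 7.52% and 9.30% in control and 2.18%, 2.17% and 2.17% in heat, a mean in heat of 0.273 times the control mean. By contrast atp4 stood at 2.76% ± 0.324 and 2.15% ± 0.163, and atp6 at 0.644% ± 0.348 and 1.05% ± 0.0835 (SD, n = 3). For atp9 the groups overlapped, at 3.01% ± 1.06 and 3.56% ± 0.108.

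**Figure D4:**
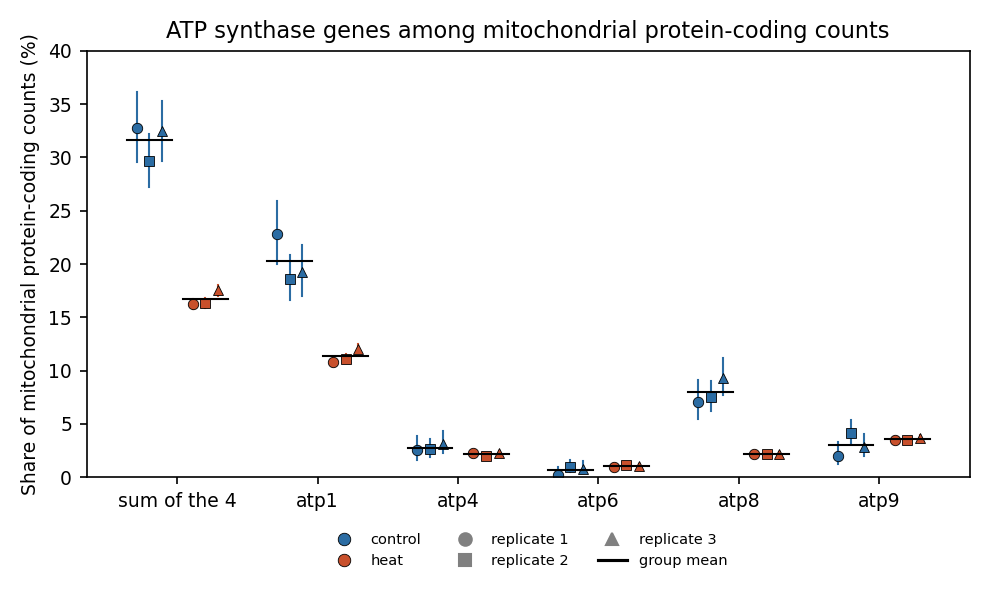
Share of the mitochondrial protein-coding counts of a library taken by the sum of the 4 genes and by each of the 5 ATP synthase genes, in percent, with control in blue, heat in orange, Wilson 95% intervals as vertical bars (counting error only) and group means as black lines. The sum of the 4 genes stands at 29.7% to 32.7% in control and at 16.2% to 17.5% in heat.

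By log2 fold change atp8 was second from the bottom of the 35 mitochondrial protein-coding genes, above rps19 (2.59 ± 0.32), a gene of the small ribosomal subunit. From the bottom atp1 was number 8, atp4 number 12, atp9 number 16 and atp6 number 19. All 35 genes rose by edgeR, and 18 of them, atp6 included, were under the count filter in at least 1 control library. The 5 ATP synthase genes had a median log2 fold change of 4.38, with 1 (atp6) under the filter in at least 1 control library. For the 8 genes of complex I, which takes electrons from NADH, the median was 5.55, with nad6 the lowest at 3.69 and nad4 the highest, and 4 were under the filter. For the 4 genes of complexes III and IV, the later steps of electron transport, it was 4.63, from 3.55 for cox3 to 5.54 for cox1, with 0 under the filter. Both genes of complex II (succinate dehydrogenase) rose, sdh4 by 3.06 and sdh3 by 5.85. The 4 genes of cytochrome c maturation had the highest median of these lists, 7.11, and all 4 were under the filter in at least 1 control library. The 10 ribosomal protein genes had a median of 4.71, from rps19 to rps7 at 7.20, the maturase gene matR rose by 7.01 and the transporter gene mttB by 4.97. The 3 ribosomal RNA genes rose by 5.67 to 7.00, and all 3 were under the filter in at least 1 control library. The differences between these lists were not tested.

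**Figure D5:**
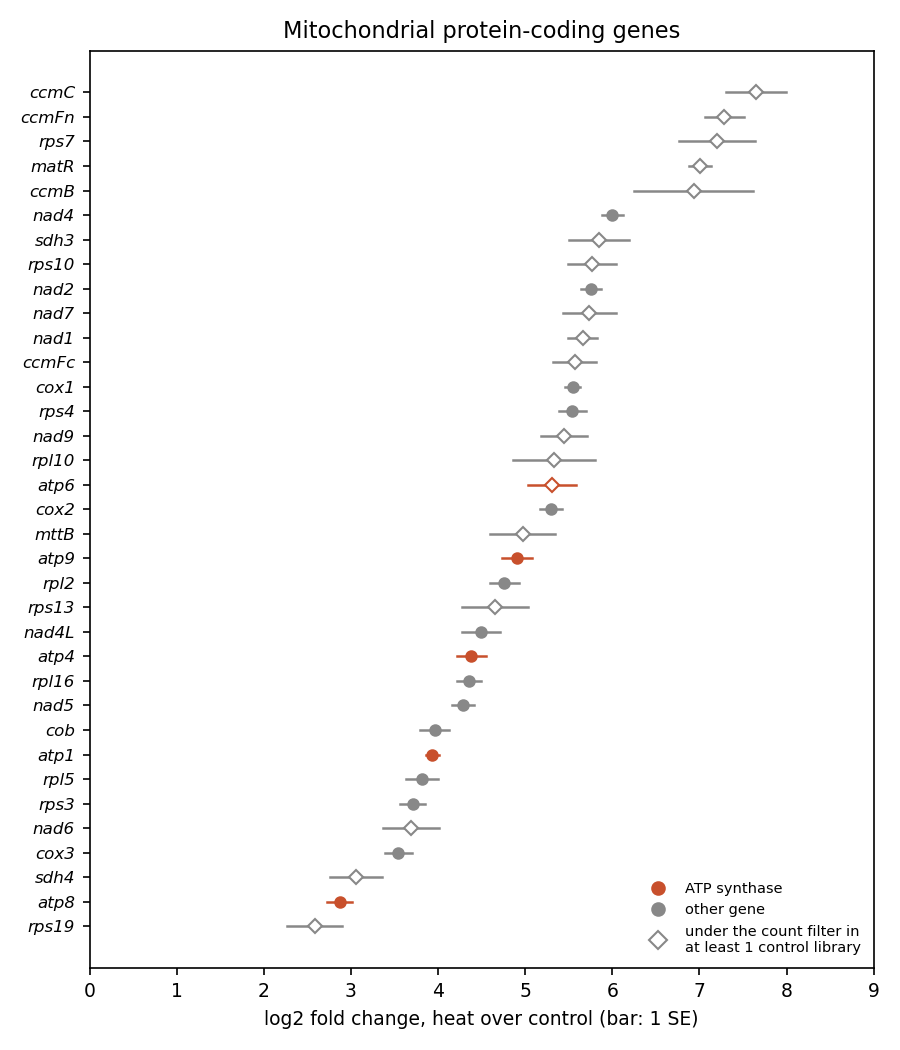
Log2 fold change of heat over control for the 35 mitochondrial protein-coding genes, in order of size, with horizontal bars of 1 SE, ATP synthase genes in orange and other genes in grey. Open diamonds mark genes under the count filter in at least 1 control library. The ATP synthase genes run from 2.87 for atp8 to 5.31 for atp6.

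Likeness of pattern was measured as the root mean square difference over the 6 libraries of log2(CPM + 0.5), each gene centred on its own mean. The added 0.5 damps the folds of genes with low control levels, so that atp6 appears closer to the rest than its fold is. The mitochondrial protein-coding gene most like atp1 was rpl16, a ribosomal protein gene, at a difference of 0.08. Its edgeR log2 fold change was 4.35, against 3.93 for atp1, and by fold cob (3.96) lay nearer to atp1. The gene most like atp4 was atp1 (0.13), and the one most like atp6 was atp4 (0.13). By fold rpl16 lay nearer to atp4 (4.38) than atp1 did, so these matches depend on the added 0.5. Most like atp8 was nad6 (0.15), whose control level of 0.305 CPM lay below the added 0.5. By edgeR the log2 fold change of nad6 was 3.69, against 2.87 for atp8. Between atp8 and the other 3 genes the difference was 0.53 to 0.60. The nuclear genes most like the mean of the 4 were LOC115716650 (0.06; log2 fold change 3.63) and LOC115711251 (0.08; log2 fold change 3.59), out of 17683 nuclear genes tested.

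Other measures of the libraries moved with these rises. Of the listed reads, 1.79% ± 0.0634 lay outside annotated exons in control and 6.05% ± 0.108 in heat, and the share assigned to genes was 88.8% ± 0.178 and 84.1% ± 0.104 (SD, n = 3). Their part in the rise of the 4 genes was not tested.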

How the data were processed

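Leaf mRNA was analysed in 3 control and 3 heat libraries, made with TruSeq mRNA chemistry from RNA of the RNeasy Micro kit, per the labels' protocols. Trimmomatic 0.39, HISAT2 2.2.1, HTSeq 2.0.5 and DESeq2 are named in the submitters' processing notes. Settings, build, annotation and strand use are not given in the sources used here. The authors deposited raw counts per gene, whose 5 closing rows name no gene (11.2% of listed reads in control, 15.9% in heat) and were left out of totals and tests. They also deposited a normalized signal, which returned whole reads for 100% of values (tolerance 0.01), equal to the counts. The same test on these reads called 7857 rising and 8218 falling genes, as on the counts.

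Counts of all 6 libraries were tested in R 4.3.3 with edgeR 4.0.16 (filterByExpr, TMM, robust glmQLFit and glmQLFTest, two-sided, no covariate, Benjamini-Hochberg adjustment over 17727 genes, threshold 0.05). The SE is the log2 fold change divided by the square root of F. The fits were tested on simulated data. Shares and ratios within libraries were compared by exact permutation. Locus tags were named from the RefSeq table of ASM2916894v1, whose build the deposited sources do not name; it was used for symbols, neighbours and coding lengths, and all 5 ATP synthase lengths were multiples of 3. The table holds no sequences, so none are shown and near-identical copies elsewhere in the genome, which could share reads with these genes, were not searched for. The members and lists were chosen with earlier results of these data known. Named genes are the 4 members, atp9, their neighbours, the extremes of each fixed list and the genes of most similar pattern; rpl16, nad4L, cob and others entered by these rules, the neighbours after the data were examined. Alternatives were other scalings, DESeq2 1.42.0, limma-voom (limma 3.58.1), other filters, a replicate block and removal of each library. Library totals without mitochondrial genes and the reads recovered from the normalized signal were also used.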

Additional observations from a re-analysis of the deposited data

Results flagged for a closer look

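Among the reads that no gene count includes, 3 kinds were more frequent in every heat library than in any control library. Reads falling outside annotated exons were 6.05% of all listed reads in heat (1.79% in control). Unaligned reads were 3.09% (2.43% in control), and reads with several alignments 5.07% (4.22% in control). Ambiguous reads went the other way, 1.75% in heat and 2.73% in control, also without overlap. The relation of these shares to the ATP synthase genes was not tested.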

How the results depend on the processing

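The rise of atp1, atp4, atp6 and atp8 kept its direction and its call in all 64 fits under the alternatives. These were 10 settings and 6 removals of a library for each gene, and the largest adjusted p was 1.65e-13 (atp6, limma-voom). The setting with reads recovered from the normalized signal repeats the main fit, because these reads equal the counts, and so adds no support. Across the settings the log2 fold change ranged from 3.85 to 3.96 for atp1, 4.30 to 4.41 for atp4, 5.23 to 5.50 for atp6 and 2.79 to 2.90 for atp8. With the replicate number as a block it was 3.94 for atp1, 4.38 for atp4, 5.34 for atp6 and 2.88 for atp8, and the block changed no call of these genes and left 7758 rising and 8113 falling genes. Deviations of same-numbered libraries correlated at -0.01, 0.01 and -0.01, so no shared deviation was seen. With 3 libraries per group this cannot show whether equal numbers mark a pairing, which the labels do not state. Removing each library in turn gave 3.84 to 4.04 for atp1, 4.21 to 4.50 for atp4, 4.90 to 5.84 for atp6 and 2.68 to 2.98 for atp8. Upper-quartile and total-count scaling placed the median of all genes at -0.14 and -0.12 instead of -0.05, and without the count filter, over 23298 genes, it was 0.14. A test against a 2-fold change called 4864 rising and 5555 falling genes.

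With atp9 in the sum, the difference in the share of atp1 was -2.57 points instead of 3.82, and that of atp4 2.66 instead of 4.16. Per coding length the differences were 8.16 points for atp4, 6.06 for atp6 and -20.2 for atp8. Adding atp9 changes the sum, whereas dividing by coding length changes both the counts and the sum. The direction of the atp1 difference therefore depends on whether atp9 is included. The share of the 4 genes in mitochondrial protein-coding counts differed by -15.9 to -14.4 points when each library was removed. Depth limits atp6 most, with 22 reads over the control group.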
